A study of Rattus norvegicus with 38 samples.

Results

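The genes described here are 8 surface receptors and adaptors of myeloid cells: the immunoglobulin-like receptors Lilrb4 and Pira2, the sialic acid-binding receptor Cd33, the receptors for immunoglobulin G Fcgr1a, Fcgr2b and Fcgr3a, and the adaptor chains Fcer1g and Tyrobp. They were chosen by the measured fold change between rejecting and accepted hearts, in which Lilrb4 lies among the largest increases, and by membership of its receptor family, and every probeset annotated to a current or former symbol was taken. A probeset is the set of short oligonucleotides that measures a transcript. The heart array held 10 such probesets of 15866 and measured 6 of the 8 genes by a probeset of their own, since Fcgr1a and Cd33 were named by none. The array used for peripheral blood mononuclear cells (PBMC) held 12 of 31042 and measured all 8.

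The study placed Dark Agouti (DA) hearts in the abdomen of Brown Norway (BN) rats, which reject them, or of DA rats, which do not, and collected tissue on post-transplant day 6. Heart tissue comprised 5 DA allografts and the 5 native hearts of their BN recipients, 4 DA isografts and the 4 native hearts of their DA recipients. PBMC were taken from 5 BN rats with an allograft, 9 DA rats with an isograft, and 3 BN and 3 DA rats with no transplant, and each sample had 1 array. An allograft is a DA heart that also holds cells of its BN host, all native BN hearts came from rats with an allograft, and every recipient of an allograft was BN and of an isograft DA. Levels are given in array medians, that is, as the signal of a probeset divided by the median signal of its array. That median was 38.3 to 50.8 on the 18 heart arrays and 20.2 to 36.8 on the 20 arrays of PBMC, where untransplanted rats were processed as a separate batch. Heart muscle markers were present in hearts, with a summed level of 6 genes between 81.6 and 852 array medians. In PBMC all 6 lay below the array median in each group and summed to at most 2.23. The 9 T cell markers summed to at least 204 array medians in PBMC.

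These receptors work in pairs of opposite sign. Activating members such as Fcgr3a, Fcgr1a and Pira2 carry little signaling sequence of their own and associate with a chain that does, Fcer1g, whose tyrosine motif (the ITAM) is phosphorylated by Src family kinases and recruits the kinase Syk. Tyrobp, also called DAP12, is a second chain of that kind used by other myeloid and natural killer cell receptors. Inhibitory members such as Fcgr2b and Lilrb4 carry the opposing motif (the ITIM), which recruits the phosphatases Ptpn6 and Inpp5d, and Cd33 belongs to the sialic acid-binding lectins of myeloid cells. The ligands of these receptors include antibody complexes and histocompatibility antigens, and their amounts in these grafts were not examined here.

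Promoter sequences were at hand in RefSeq (rat assembly GRCr8, 250 bases before to 50 after the transcription start) for 4 of the 8 genes, and 3 are shown because these genes had large increases in allografts or between strains. Capitals mark GAGGAAGT, an Ets type of motif bound by myeloid factors, or its reverse complement ACTTCCTC. The motif was picked after the sequences had been seen.
Pira2, chr1:74331052-74331351, plus strand: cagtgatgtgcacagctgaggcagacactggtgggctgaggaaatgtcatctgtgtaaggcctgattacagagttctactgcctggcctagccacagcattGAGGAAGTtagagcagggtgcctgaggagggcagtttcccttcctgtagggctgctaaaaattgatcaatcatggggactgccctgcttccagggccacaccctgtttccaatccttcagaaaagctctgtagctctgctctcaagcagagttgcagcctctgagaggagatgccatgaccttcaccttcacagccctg
Fcgr3a, chr13:85782386-85782685, plus strand: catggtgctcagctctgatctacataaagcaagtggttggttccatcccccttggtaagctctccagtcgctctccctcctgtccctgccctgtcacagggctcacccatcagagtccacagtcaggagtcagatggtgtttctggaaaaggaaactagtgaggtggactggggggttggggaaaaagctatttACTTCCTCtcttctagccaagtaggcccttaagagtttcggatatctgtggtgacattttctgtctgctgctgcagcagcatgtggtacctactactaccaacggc
Lilrb4, chr1:78853203-78853502, minus strand: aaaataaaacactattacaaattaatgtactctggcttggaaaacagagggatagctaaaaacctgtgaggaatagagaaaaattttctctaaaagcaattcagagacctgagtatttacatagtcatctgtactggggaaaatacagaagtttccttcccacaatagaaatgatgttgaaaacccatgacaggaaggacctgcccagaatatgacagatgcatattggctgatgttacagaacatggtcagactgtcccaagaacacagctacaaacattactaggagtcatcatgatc
The match began 149 bases before the start in Pira2 and, on the opposite strand, 56 bases before it in Fcgr3a. The Lilrb4 window and the windows of Cd33 held no match to these letters. On either strand the motif was found in 2.42% of all promoters of that length (810 of 33469). The assembly represents the BN strain, and no DA sequence was at hand. In the order of genes on chromosome 13, Fcgr2b, Fcgr3a and Fcgr2a are neighbors, and Lilrb4, Pira2, Tyrobp and Cd33 all lie on chromosome 1.

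The first comparison asked how the receptors differ between rejecting and accepted hearts. All 6 measured genes were higher in allografts than in isografts, from 4.69-fold for Fcer1g to 35.3-fold for Lilrb4, and no allograft overlapped any isograft for any of the 10 probesets. This is a description, since the genes were proposed with this contrast in view, and no test is given. At least 3-fold higher were 6 of 6 genes, where 5.47% of all probesets were. The share of all probesets without overlap was not counted. In either direction, 6576 of 15866 differed at a limma adjusted p of at most 0.10. A change of a transcript per cell and a change in the number of cells that hold it cannot be told apart in tissue RNA, here or below.

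**Figure D1:**
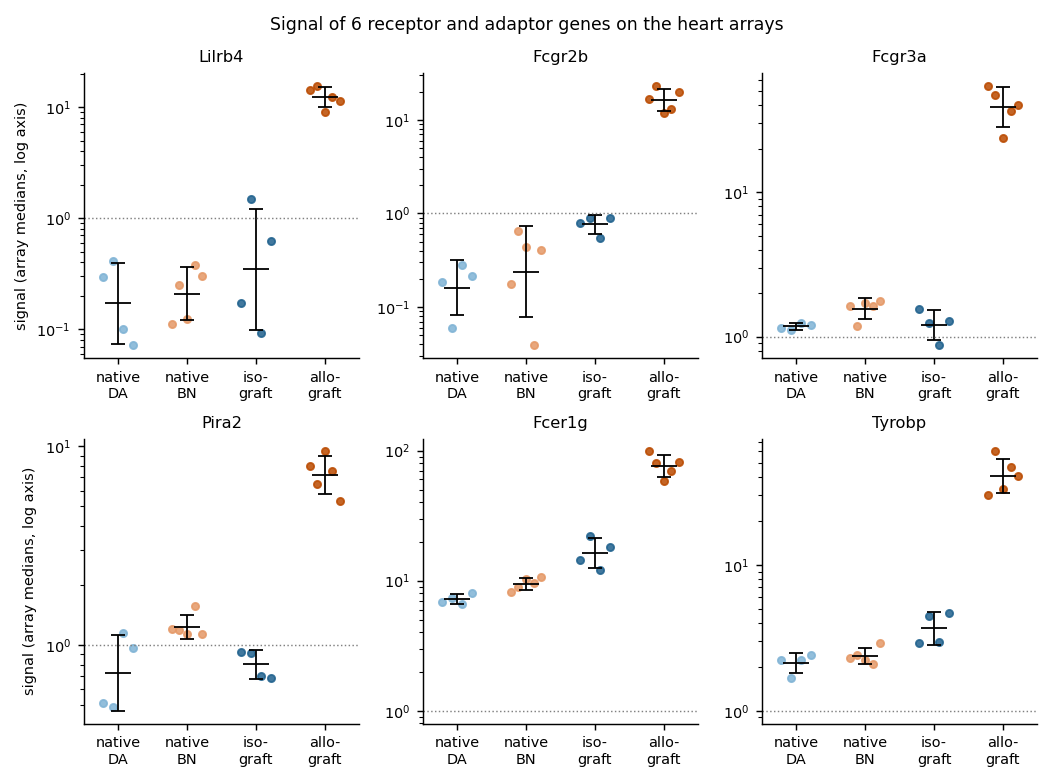
Signal of the 6 genes on the 18 heart arrays, each by its brightest probeset, in array medians on a log axis; points are hearts, and the black bar and whiskers are the mean and SD of the log2 values. The allografts lie above all other hearts in every panel, and the dotted line is the array median.

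Lilrb4, an inhibitory receptor, stood at 14.3, 15.4, 9.08, 12.3 and 11.3 array medians in allografts A3 to A7. In isografts it was 0.618 (I9), 0.173 (I11), 1.49 (I12) and 0.0920 (I13). The allografts lay close together, while the isografts ranged over more than an order of magnitude and 3 of 4 lay below the array median. The resulting 35.3-fold difference (log2 fold change 5.14, SE 0.69) therefore rests on weak isograft signals, and it was 4.20 on the log2 scale with 0.25 array medians added to every signal and 5.84 without isograft I12. Fcgr2b, the inhibitory receptor for immunoglobulin G, was at 16.8, 22.9, 11.9, 13.1 and 19.8 in allografts A3 to A7 and at 0.892, 0.790, 0.889 and 0.546 in isografts I9, I11, I12 and I13. All isografts were below the array median and all allografts far above it, and the fold change was 21.4 (4.42, SE 0.64).

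Among the activating receptors, Fcgr3a, a low-affinity receptor for immunoglobulin G of macrophages and natural killer cells, was at 54.2, 47.3, 23.7, 36.7 and 40.1 in allografts A3 to A7 and at 1.29, 1.55, 1.24 and 0.870 in the isografts. It was 32.1-fold higher (log2 fold change 5.01, SE 0.22), and its standard error was less than the 0.69 of Lilrb4. Pira2 was at 7.96, 6.45, 9.44, 7.51 and 5.31 in allografts and at 0.686, 0.927, 0.918 and 0.703 in isografts I9, I11, I12 and I13, a difference of 8.99-fold (3.17, SE 0.25). Its other probeset gave 6.20-fold, and a probeset shared by Pira2, Pirb, Lilrb1 and Lilrb3b gave 63.1-fold against isografts at 0.0195 to 0.303. In this comparison the leukocytes of an allograft are largely of the BN host and those of an isograft are DA. Rejection and strain of the leukocytes therefore cannot be told apart for any of these genes. Of those measured in heart, Pira2 and, by a smaller fold, Fcgr2b differed between strains in PBMC of untransplanted rats (below).

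The adaptor chains signal for several of these receptors at once. Fcer1g was at 98.4, 80.2, 58.6, 69.8 and 81.5 in allografts A3 to A7 and at 18.3, 14.4, 22.2 and 12.1 in isografts I9, I11, I12 and I13 (4.69-fold, log2 fold change 2.23, SE 0.18). Tyrobp was at 30.2, 59.8, 33.2, 46.5 and 40.4 against 4.70, 2.93, 4.46 and 2.94 (11.1-fold, 3.48, SE 0.21). Both chains lay above the array median in all isografts too. The 2 probesets named for Fcgr2al1 and Fcgr2a, which came in through a former name of Fcgr2a, were 6.56-fold and 7.31-fold higher in allografts.

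Each graft could also be set against the native heart of its own recipient. For all 10 probesets the allograft was higher in 5 of 5 recipients. The share of all probesets with that pattern was not counted. The ratio was between 32.1 and 129.5 for Lilrb4, between 13.8 and 40.1 for Fcgr3a, between 27.3 and 336 for Fcgr2b and between 13.2 and 24.9 for Tyrobp. It was 5.74 to 12.1 for Fcer1g and 4.67 to 8.29 for Pira2. The other Pira2 probeset gave only 1.23 to 2.87, and the shared probeset 10.3 to 21.3. In these pairs the graft is DA tissue and the native heart BN tissue.

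Genes that act beside these receptors were followed as lists. Of 11 measured kinases and adaptors downstream of the ITAM, 9 were at least 3-fold higher in allografts and 1, Card9, was at least 3-fold lower. This list had a median log2 fold change of 2.18, where all probesets had 0.02. Card9 also differed between strains in native hearts (below), and the part of strain in its lower allograft level was not tested. The adaptor Lcp2 (SLP-76) was 15.1-fold higher, the Src family kinase Fgr 7.83-fold and Bin2 6.23-fold. Of 7 measured phosphatases and other inhibitory mediators, 3 were at least 3-fold higher (median 1.38), with the phosphatase Ptpn6 (SHP-1) at 4.39-fold, Inpp5d (SHIP1) at 3.53-fold and Cblb at 3.04-fold, while Ptpn11 (SHP-2) was 2.03-fold lower. Among 10 measured related receptors 2 were at least 3-fold higher (median 0.72), Clec4a3 at 6.32-fold and Cd300a at 4.95-fold. Of 3 measured subunits of the phagocyte oxidase, which Fc receptors can activate, Cybb was 5.38-fold and Cyba 4.14-fold higher, and Ncf1 was 1.42-fold higher.

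Markers of several leukocyte types were higher in the same allografts. The 8 measured macrophage markers were all higher, 7 at least 3-fold, with a median log2 fold change of 2.85 and Itgam (CD11b) at 24.6-fold. Their summed level was 239.5 to 403 array medians in allografts and 54.0 to 90.4 in isografts. T cell markers summed to 19.8 to 43.4 against 5.04 to 6.02 (6 of 9 at least 3-fold higher), natural killer markers to 7.49 to 16.3 against 2.53 to 3.71 (4 of 7) and neutrophil markers to 5.90 to 30.1 against 2.69 to 3.70 (2 of 5). The neutrophil genes Cxcr2, Cxcr1 and Mmp8 stayed below the array median in allografts, as did the only measured B cell marker Cd79b and 8 of 9 mast cell markers. Heart muscle markers were lower, 5 of 6 by at least 3-fold. The part of these cell types in the receptor levels was not tested.

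The surgical effect, isografts against native DA hearts, used no rejecting graft, although it shares the isografts with the first comparison. At an adjusted p of at most 0.10, 3 of 6 genes were higher in isografts, none was lower and 3 did not pass. Among all probesets 7.15% were higher and 6.59% lower. The 3 genes were both adaptor chains and Fcgr2b, and the receptors Lilrb4, Fcgr3a and Pira2 were not among them.

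**Figure D2:**
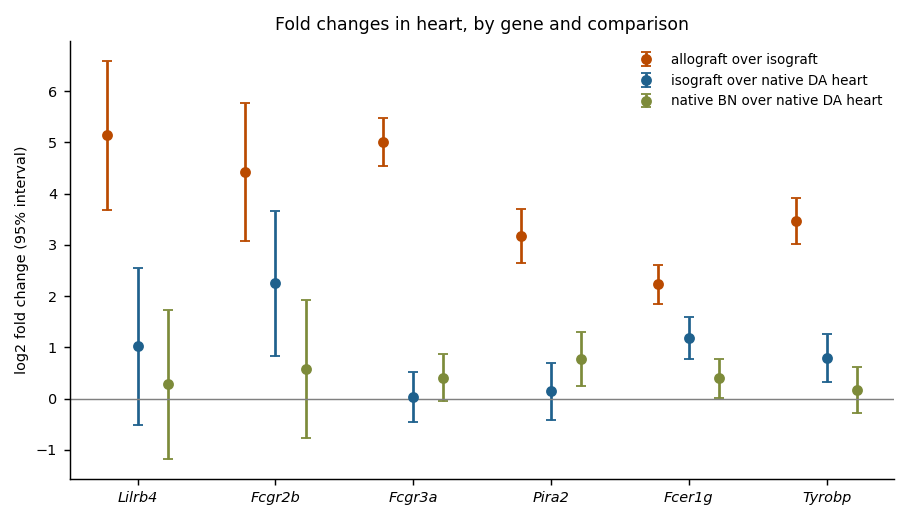
Log2 fold changes of the 6 genes in the 3 heart comparisons, with 95% intervals from limma. The line at 0 marks no difference. The genes were chosen with allografts over isografts in view, so the intervals of that comparison are descriptive and no test. Between allografts and isografts all 6 lie above 2 on the log2 scale, while Fcgr3a and Pira2 lie near 0 for isografts over native DA hearts.

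Fcer1g was at 18.3, 14.4, 22.2 and 12.1 in isografts I9, I11, I12 and I13 and at 8.08, 6.89, 7.38 and 6.60 in the native hearts of the same rats. The groups did not overlap, and the chain was 2.26-fold higher (1.18 on the log2 scale, SE 0.19, adjusted p = 0.00242). Tyrobp was at 4.70, 2.93, 4.46 and 2.94 in isografts and at 2.41, 2.24, 1.67 and 2.24 in native DA hearts, also without overlap (1.73-fold, 0.79, SE 0.22, adjusted p = 0.0428). For both chains the graft exceeded the native heart in 4 of 4 recipients, by 1.83 to 3.01 times and by 1.31 to 2.67 times. Fcgr2b was 0.546 to 0.892 in isografts and 0.0598 to 0.285 in native DA hearts (4.75-fold, 2.25, SE 0.67, adjusted p = 0.0512), so that all 8 hearts lay below the array median.

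Fcgr3a did not change beyond the spread between hearts. It was 0.870 to 1.55 in isografts and 1.11 to 1.25 in native DA hearts, 1.03-fold with a 95% interval of 0.732 to 1.44 (limma adjusted p = 0.94). Pira2 was 1.10-fold higher (interval 0.751 to 1.62, adjusted p = 0.782) and Lilrb4 2.02-fold (0.698 to 5.86, adjusted p = 0.412). The isografts I12 and I9, at 1.49 and 0.618, were the highest for Lilrb4, and I11 and I13 lay within the range of the native DA hearts. The probesets of Fcgr2al1 and Fcgr2a were 3.09-fold (adjusted p = 0.00170) and 2.45-fold (adjusted p = 0.0134) higher. With the recipient as a fixed term, which pairs each isograft with its own native heart, the count fell to 1 of 6, with Fcer1g at an adjusted p of 0.0918, Fcgr2b at 0.118 and Tyrobp at 0.169. It was also 1 of 6 without isograft I12, the highest isograft for Fcer1g and Lilrb4.

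In the same comparison, 7 of 8 macrophage markers were higher, among them Mpeg1 (5.83-fold), Cd68 (3.99-fold) and Aif1 (3.32-fold), and their summed level was 54.0 to 90.4 against 21.6 to 27.8 array medians. No neutrophil marker and none of 9 T cell markers was higher, and 1 T cell marker, Cd247, and 2 of 7 natural killer markers were lower. Of the kinases and adaptors 2 of 11 were higher, Lcp2 (4.59-fold) and Prkcd (1.50-fold), and Card9 was lower. None of the 7 inhibitory mediators and none of the 3 oxidase subunits passed. Of 10 related receptors Clec4a3 (5.22-fold) and Pilra (1.69-fold) were higher and Fcer2 was lower. The part of macrophages in the higher adaptor levels was not tested.

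Between native BN and native DA hearts, 0 of 6 genes passed by their brightest probeset at an adjusted p of at most 0.10 (limma), and 2 of 6, Pira2 and Fcer1g, had an unadjusted p below 0.05. Among all probesets 1.48% were higher and 1.46% lower, and 2193 of 15866 had an unadjusted limma p below 0.05. Pira2 stood at 1.21, 1.19, 1.14, 1.58 and 1.14 in native BN hearts A3 to A7 and at 0.964, 0.514, 0.486 and 1.16 in native DA hearts I9, I11, I12 and I13, which overlap (1.71-fold, log2 fold change 0.77, SE 0.25, adjusted p = 0.148). Its other probeset did not overlap, with 1.01, 0.873, 0.974, 0.771 and 1.27 against 0.463, 0.485, 0.302 and 0.451, and passed (2.31-fold, 1.21, SE 0.29, adjusted p = 0.0434). The shared probeset of Pira2, Pirb, Lilrb1 and Lilrb3b passed too (5.15-fold, adjusted p = 0.0493), at signals of 0.269 to 0.638 against 0.0420 to 0.101 that were below the median of every array. Without native DA heart I13 the brightest probeset of Pira2 also passed (adjusted p = 0.0691).

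The other 5 genes were 1.12-fold (Tyrobp) to 1.49-fold (Fcgr2b) higher in native BN hearts. Fcer1g was 8.13 to 10.7 in native BN hearts and 6.60 to 8.08 in native DA hearts, with no overlap but a difference of only 1.31-fold (95% interval 1.01 to 1.72, adjusted p = 0.351). Fcgr3a was 1.18 to 1.77 against 1.11 to 1.25 (1.33-fold, interval 0.963 to 1.83, adjusted p = 0.43). None of the 8 macrophage, 9 T cell or 5 neutrophil markers passed in this comparison, and of the 11 kinases and adaptors Card9 alone did. Card9 was 58.2-fold lower in native BN hearts (log2 fold change -5.86, limma adjusted p = 1.08e-05). In PBMC its direction was the opposite, higher in BN rats (below).

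Over the 4 groups of hearts, the order of the levels was thus not the same for every gene. For Fcer1g allografts, isografts, native BN and native DA hearts followed each other with no overlap between neighbors. For Tyrobp the native groups overlapped each other. For Lilrb4, Fcgr2b and Fcgr3a the allografts stood apart and each following pair of neighbors overlapped. For Pira2 native BN hearts came second, above all isografts, which overlapped with native DA hearts. On its other probeset the allografts, at 1.20 to 2.36, overlapped with native BN hearts, at 0.771 to 1.27.

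**Figure D3:**
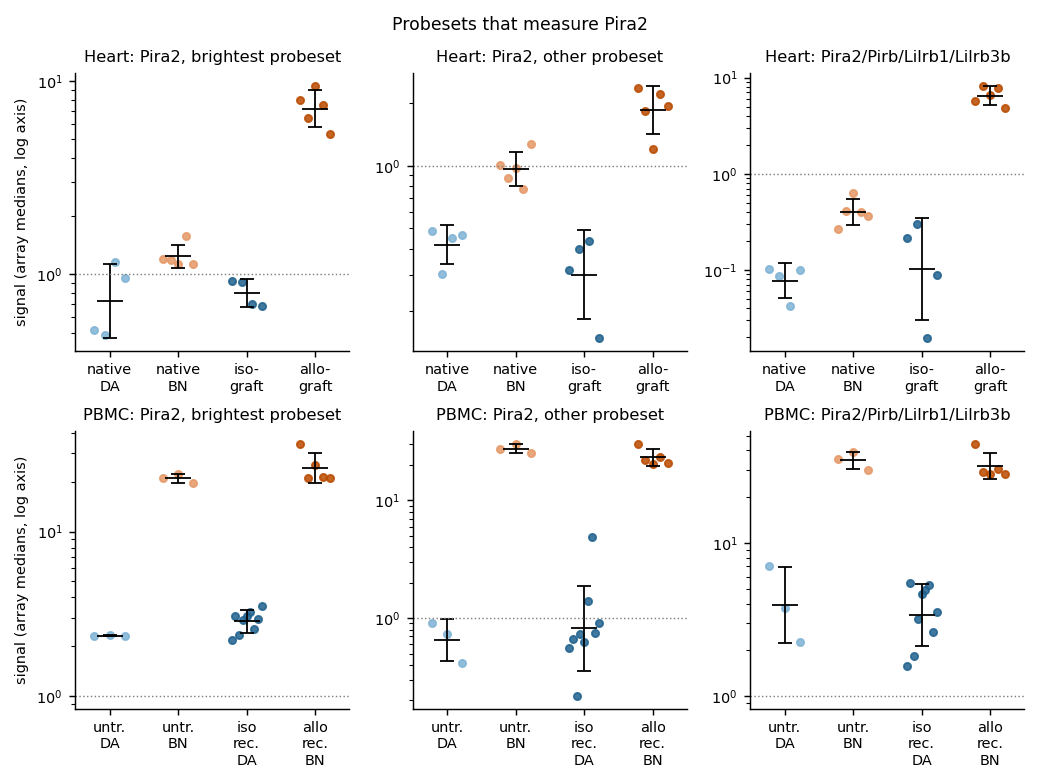
The 3 probesets that measure Pira2, the last one shared with Pirb, Lilrb1 and Lilrb3b, on heart arrays (top) and PBMC arrays (bottom), in array medians on a log axis with the mean and SD of log2 values. In PBMC the BN rats lie above the DA rats for every probeset, with or without a transplant.

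In PBMC the first comparison was the strain effect, untransplanted BN over untransplanted DA rats. Pira2, Fcgr2b and Fcgr1a were higher in BN rats, 3 of 8 genes at an adjusted p of at most 0.10, and none was lower. Among all probesets 3.58% were higher and 4.86% lower. Pira2 differed far more than the others. It stood at 21.1, 22.3 and 19.8 array medians in BN1 to BN3 and at 2.32, 2.35 and 2.32 in DA1 to DA3, a difference of 9.04-fold (3.18 on the log2 scale, SE 0.20, adjusted p = 7.72e-09). The difference was many times the spread within either strain. Its other probeset was 42.4-fold higher, with DA rats at 0.415 to 0.908, and the shared probeset 8.80-fold. Whether its oligonucleotides detect the transcript of either strain equally well was not tested.

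The immunoglobulin G receptors differed less. Fcgr2b was at 17.9, 22.5 and 19.4 in BN and between 8.55 and 13.1 in DA1 to DA3 (1.80-fold, log2 fold change 0.85, SE 0.24, adjusted p = 0.0421). Fcgr1a, the high-affinity receptor, was at 19.0, 25.0 and 15.8 against 14.4, 8.74 and 9.59 (1.84-fold, 0.88, SE 0.27, adjusted p = 0.062). In both the groups did not overlap, but the calls depended on single rats: without BN2 or without DA3 both were lost, and the count was 1 of 8, Pira2. Fcgr3a was at 53.0, 47.3 and 41.7 in BN and at 57.9, 37.0 and 35.7 in DA rats, which overlap (1.11-fold, 95% interval 0.811 to 1.52, adjusted p = 0.788).

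Lilrb4 was at 34.1, 29.6 and 29.0 in BN and at 27.9, 17.7 and 15.2 in DA rats, with no overlap (1.57-fold, interval 1.06 to 2.34, adjusted p = 0.199). DA1 was the highest DA rat for Lilrb4, Tyrobp, Fcgr1a, Fcgr2b, Fcgr3a and Fcer1g, and without it the count was 5 of 8, with Lilrb4 and Tyrobp added. Tyrobp was 1.53-fold higher (interval 1.07 to 2.20, adjusted p = 0.179) and Cd33 2.28-fold (0.567 to 9.17, adjusted p = 0.57), at signals below the array median in all 6 rats. The Cd33 groups did not overlap (0.807 to 0.979 against 0.370 to 0.454), and with only the 2 compared groups in the fit it passed (adjusted p = 0.0405), while Fcgr2b (0.130) and Fcgr1a (0.182) did not. Fcer1g, at 129 to 159 in BN and 138 to 175 in DA rats, was at 0.948 times its DA level (interval 0.750 to 1.20, adjusted p = 0.862). The levels of the Fcer1g chain thus overlapped between strains, and those of Pira2, which signals through it, did not.

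**Figure D4:**
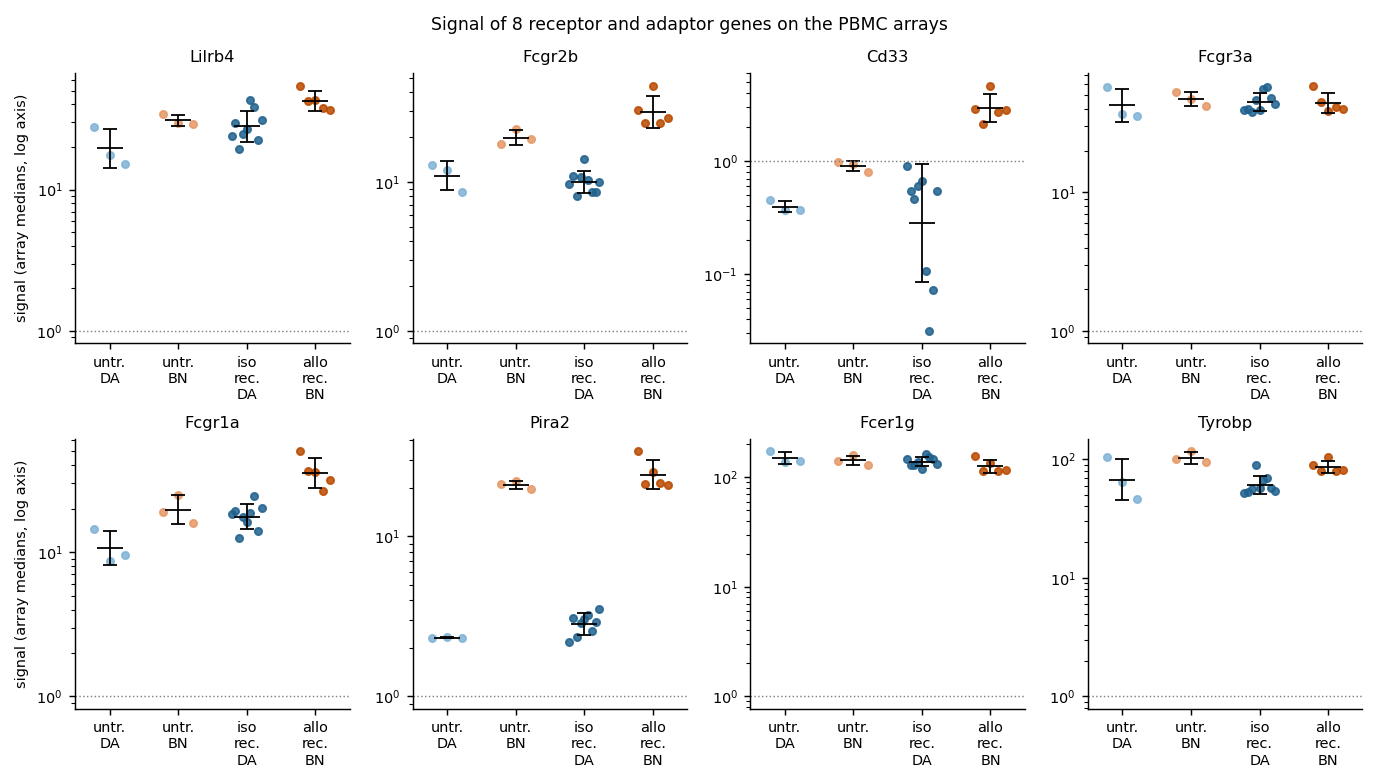
Signal of the 8 genes on the 20 PBMC arrays, each by its brightest probeset, in array medians on a log axis; points are rats (untr., untransplanted; iso rec. and allo rec., isograft and allograft recipients), with the mean and SD of the log2 values. BN rats lie above DA rats for Pira2 in both pairs of groups, and the groups overlap for Fcgr3a and Fcer1g.

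Between recipients the comparison held both strain and rejection, allograft (BN) over isograft (DA). At an adjusted p of at most 0.10, 6 of 8 genes were higher in allograft recipients and none was lower, where 6.66% of all probesets were higher and 3720 of 31042 lower. The 2 that did not pass were Fcgr3a and Fcer1g. Cd33 and Pira2 differed by far more than the other 6. Cd33 was at 2.92, 2.12, 4.68, 2.73 and 2.83 in allograft recipients QR3 to QR7, and in the 9 isograft recipients at 0.0315 (lowest), 0.541 (median) and 0.900 (highest). The groups did not overlap and the array median lay between them, a 10.4-fold difference (3.38 on the log2 scale, SE 0.65, adjusted p = 0.00171) against weak and scattered isograft signals.

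Pira2 was at 34.3, 21.2, 25.4, 21.6 and 21.0 in allograft recipients and at 2.19, 2.93 and 3.52 (lowest, median, highest) in isograft recipients (8.54-fold, log2 fold change 3.09, SE 0.13, adjusted p = 2.65e-11). Its other probeset was 28.3-fold higher, and the shared probeset 9.36-fold. On the former, isograft recipient QR20 stood at 4.93, while the other 8 lay between 0.218 and 1.39. Fcgr2b was at 30.4, 24.9, 44.3, 24.7 and 26.7 against 8.09, 10.0 and 14.2 (2.95-fold, 1.56, SE 0.16, adjusted p = 2.87e-06). Fcgr1a was at 50.4, 36.5, 35.7, 26.5 and 31.4 against 12.4, 18.5 and 24.4 (2.01-fold, 1.01, SE 0.18, adjusted p = 0.000926). For all 3 genes the groups did not overlap.

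Lilrb4 was at 54.4, 42.3, 42.9, 38.0 and 36.3 in allograft recipients and at 19.3, 26.9 and 43.0 in isograft recipients, which overlap (1.51-fold, log2 fold change 0.60, SE 0.19, adjusted p = 0.0403). Tyrobp was at 88.8, 80.0, 105, 79.0 and 80.9 against 52.4, 57.0 and 90.0, also with overlap (1.41-fold, 0.50, SE 0.17, adjusted p = 0.0594). Both calls were lost without a single rat, that of Lilrb4 without QR3 (adjusted p = 0.103) and that of Tyrobp without QR5 (adjusted p = 0.156). Fcgr3a was at 59.0, 44.7, 38.4, 41.5 and 40.1 against 38.3, 43.3 and 57.8, or 0.986 times (95% interval 0.796 to 1.22, adjusted p = 0.952). Fcer1g was at 0.905 times (interval 0.771 to 1.06, adjusted p = 0.447), and under quantile normalization its direction turned and it passed (log2 fold change 0.27, adjusted p = 0.019). Fcgr3a, 32.1-fold higher in rejecting hearts, thus showed no difference beyond the spread in either PBMC comparison.

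**Figure D5:**
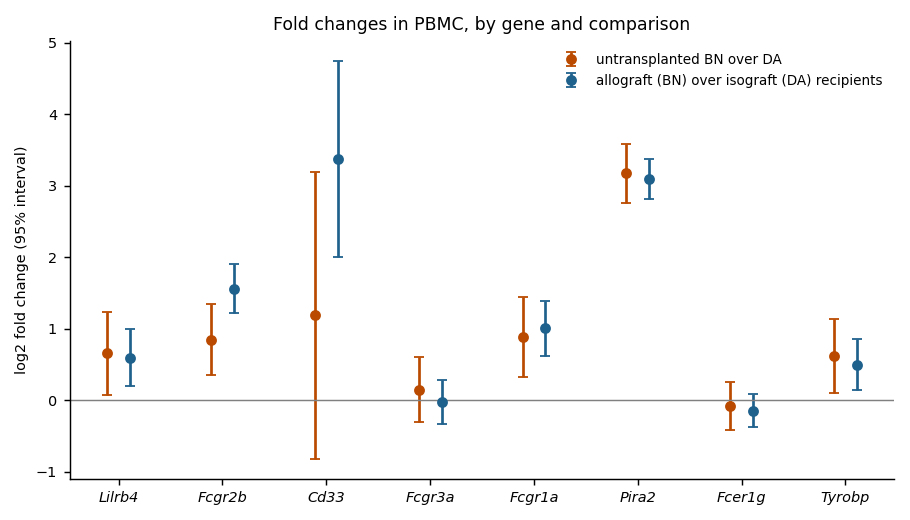
Log2 fold changes of the 8 genes in PBMC of untransplanted rats (BN over DA) and of recipients (allograft, BN, over isograft, DA), with 95% intervals from limma; 0 marks no difference. The intervals overlap for all 8 genes, and the Pira2 estimates, 3.18 and 3.09, both lie far from 0.

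The ratio of both effects, strain plus rejection over strain, asked whether rejection added to the difference between strains. It takes batch and surgery to act equally in both strains, and strain and rejection to add on the log2 scale. Neither assumption was tested. No gene passed (0 of 8 in limma, and 1 of 8, Fcgr2b, at an unadjusted p below 0.05), where 0.348% of all probesets passed in either direction. An unadjusted limma p below 0.05 was reached by 2595 of all 31042 probesets. For Pira2 the ratio was 0.945 with a 95% interval of 0.669 to 1.34, and for its other probeset and the shared one 0.667 (0.199 to 2.24) and 1.06 (0.477 to 2.37). For Fcgr2b it was 1.64 (interval 1.08 to 2.49, limma adjusted p = 0.498) and for Cd33 4.55 (0.843 to 24.5, adjusted p = 0.651). The remaining 5 lay between 0.888 for Fcgr3a and 1.09 for Fcgr1a. The interval of Cd33 was the widest, and its log2 signals scattered most among the isograft recipients (SD 1.72, against 0.15 to 0.41 in the other groups). Levels of recipients and untransplanted rats of the same strain cannot be told apart from the processing batch and are not compared.

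Within PBMC, marker levels moved with the groups as well. In untransplanted rats 7 of 13 macrophage and monocyte markers were higher in BN, with Mrc1 at 4.29-fold and Cd14 at 2.50-fold. The 1 that was lower, Ms4a7, changed most, at 41.4-fold (limma adjusted p = 0.00114). Ms4a7 also passed in the ratio of both effects (36.9-fold higher, limma adjusted p = 0.0668). Summed levels of the 13 markers overlapped between strains (469.8 to 557 in BN, 429 to 597 in DA rats). T cell markers were lower, 6 of 9, with sums of 455 to 509 against 817 to 865. Natural killer markers were lower for 4 of 9 (82.9 to 106.7 against 162 to 176). In recipients 7 of 13 macrophage markers were higher and 1 lower, 8 of 9 T cell markers were lower (sums 204 to 349 against 327 to 557), and of 7 neutrophil markers 4 were higher and 1, Camp, was lower (7.79-fold). Of 5 B cell markers 3 were higher in allograft recipients and none was lower (sums 72.4 to 123 against 42.5 to 78.4). The 3 were Cd79b (1.86-fold), Ms4a1 (1.69-fold) and Fcrla (1.41-fold), and no B cell marker passed in untransplanted rats. The neutrophil sum was 70.2 to 78.6 in 4 allograft recipients and 221 in QR5, against 16.4 to 73.9 in isograft recipients. QR5 was also the highest allograft recipient for Fcgr2b, Cd33 and Tyrobp. Without QR5 the log2 fold change was 1.41 for Fcgr2b and 3.21 for Cd33, both still past the threshold (adjusted p = 9.64e-06 and 0.0072). The part of these cell types in the receptor levels was not tested.

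Of the pathway lists in PBMC, the related receptors had the most calls. In untransplanted rats 11 of 21 were higher in BN and 1 was lower (median log2 fold change 0.67, against -0.08 over all probesets), with the C-type lectin Clec4a at 4.64-fold and the sialic acid-binding Siglec5 at 4.29-fold. In recipients 9 of 21 were higher and 4 lower, with Siglec5 at 3.02-fold, the beta-glucan receptor Clec7a at 2.22-fold and Siglec10 at 2.12-fold. Of 16 kinases and adaptors 3 were higher and 3 lower in untransplanted BN rats, and 2 higher and 4 lower in allograft recipients, with Card9 (2.67-fold and 1.99-fold) and Btk (1.74-fold and 1.68-fold) higher in both. Of 11 inhibitory mediators 1 was higher, Dok3 (2.43-fold), and 4 lower in untransplanted BN rats, and 4 were lower in allograft recipients, with Dok2 and Ptpn22 lower in both. Of 4 oxidase subunits none passed in untransplanted rats and Ncf4 was higher in allograft recipients (1.80-fold). No member of these 4 lists passed in the ratio of both effects.

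The genes with the most similar pattern were found by Pearson's r of log2 signal, among probesets with a single gene name that reached the median of the array on 50% or more of the arrays of any group. Over the 18 heart arrays, Fcgr3a was most like Bin2 (r = 0.99), Itgam (0.99) and Slfn4 (0.99), Fcer1g like Sat1, Spp1 and Arpc5 (all 0.99), and Tyrobp like Plin2, Glipr1 and Lcp1 (all 0.99). Lilrb4 was most like Slc4a7 (0.97), Anpep (0.96) and Sdc1 (0.96), Fcgr2b like Tardbp, Elovl1 and Ifngr1 (all 0.97), and Pira2 like Ass1 (0.97), Yipf1 (0.97) and Slfn4 (0.96). These arrays share their 4 group means, and the allografts stand apart on all of these genes. Over the 20 PBMC arrays, Pira2 was most like RT1-Ba (0.98), Fxyd2 (0.98) and Anxa3 (0.96), and Fcgr1a like Igsf6 (0.98), Sowahc (0.96) and Cyfip1 (0.96). Lilrb4 was most like the macrophage genes Cd68 (0.94) and Mpeg1 (0.92) and Bcat1 (0.92), and Fcgr2b like Hbe1 (0.95), Anxa1 (0.95) and Il18 (0.95). For Cd33 the highest values were 0.90 (Suox), 0.86 (Gca) and 0.85 (Il18). For Fcer1g they were 0.92 (Srgn), 0.88 (Itm2b) and 0.88 (Gpx1), for Tyrobp 0.86 (S100a6), 0.85 (Matk) and 0.84 (Pld4), and for Fcgr3a 0.83 (Tnfaip2), 0.81 (Rarg) and 0.79 (Ccrl2). The PBMC arrays also fall into 4 groups that differ by strain, transplant and batch. These values of r include such differences between groups, and r within groups was not computed.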

How the data were processed

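Arrays were RAE230A for 18 hearts and RAE230 2.0 for 20 PBMC samples. The authors deposited linear signal intensities from MAS5 (version not given in the sources used here), scaled to a common trimmed mean. Signals of each array were divided by the array median and log2 transformed, as in the authors' methods. Control probesets (57 per array type) were left out. Symbols came from the platform annotation, updated through gene identifiers to GRCr8 names. A single symbol was found for 12783 of the 15866 probesets on the heart array (12748 matched to GRCr8), several for 312 and none for 2771. On the PBMC array these numbers were 20826 of 31042 (20758 matched), 436 and 9780.

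Each tissue was fitted in limma 3.58.1 (R 4.3.3) with a mean for each of 4 groups, and p-values were adjusted by Benjamini-Hochberg over all non-control probesets, with a threshold of 0.10. The script was tested on simulated data. Within a group each replicate is a rat of its own, and precision is limited by how many arrays there are. The study took hearts and PBMC from the same series of transplants, so the tissues are not independent sets of rats. Sharing of rats between heart and PBMC samples was not used in any fit. A gene was represented by its brightest probeset with 1 symbol. From each list of markers or pathway genes, up to 4 genes past the threshold could be named, those that changed most (for the rejection effect, the largest folds). Markers named as below the array median were named apart from that rule, after their values were seen. The 8 genes and the lists were chosen with earlier results of these data known. A graft and a native heart with the same number came from 1 recipient, by the labels, and therefore pair, although their deviations from group means correlated weakly (r from -0.0450 to 0.118). Alternatives covered normalization, an added constant, a filter on low signals, an intensity trend, the probeset chosen, the groups fitted, blocks and each array left out. No array was left out of the values given.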

Additional observations from a re-analysis of the deposited data

Results flagged for a closer look

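Of 64 groups of 4 to 10 samples, 5 held a sample whose gap to the nearest other was large for the range of the group, on the log2 scale (Dixon's criterion at 95%), and chance gives about 1 in 20. Native BN heart A5 was at 3.45 array medians for the probeset of Fcgr2al1 and Fcgr2a, above 2.12 to 2.31 in the other 4. Native BN heart A6 was at 1.58 for Pira2, above 1.14 to 1.21. Native BN heart A4 was at 1.18 for Fcgr3a, below 1.62 to 1.77. Native DA heart I12 was at 0.302 for the other Pira2 probeset, below 0.451 to 0.485. Allograft recipient QR3 was at 44.3 for the probeset shared by Pira2, Pirb, Lilrb1 and Lilrb3b, above 28.2 to 30.4.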

How the results depend on the processing

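The counts of genes at least 3-fold higher in allografts (6 of 6), of genes higher in allograft recipients (6 of 8, between 5 and 7) and of genes that passed in the ratio of both effects (0 of 8) stayed within 1.5 times the value given under every alternative run. The surgical count, 3 of 6, was 1 with a replicate block (recipient as a fixed term) and 3 with the recipient as a random block, and 1 to 3 with 1 heart left out. The heart strain count, 0 of 6, was 1 with a filter on low signals, with an intensity trend, and with the probeset of largest change per gene, and 0 to 1 with 1 heart left out, Pira2 in each case. The PBMC strain count, 3 of 8, was 5 under quantile normalization, 5 on the deposited scale without division by the median (added after seeing the data), and 1 to 5 with 1 rat left out. A replicate block on the numbers of untransplanted rats, which share only a number (deviations correlated at 0.00304 to 0.0365), gave 0. With only the compared groups in the fit, Fcgr2b (adjusted p = 0.13) and Fcgr1a (adjusted p = 0.182) did not pass and Cd33 did (adjusted p = 0.0405). The only change of direction past the threshold was Fcer1g in recipients under quantile normalization (log2 fold change 0.27). The deposited scale moved the median of all probesets by 0.16 in the PBMC strain effect and by 0.13 in recipients on the log2 scale. Over single genes 756 values counted as unchanged. Outside the rejection effect these stayed on their side of the threshold, and a change of direction was counted only where either fit passed. In the rejection effect they kept direction and moved by less than their standard error. Of the other values, 11 newly passed, 20 no longer passed and 6 sizes in the rejection effect moved by at least their standard error. The causes were not tested. Genes below the array median, such as Lilrb4 and Fcgr2b in isografts and Cd33 in DA rats, have folds that weak signals limit.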
